A study of Mus musculus with 58 samples.

Results

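Glucocorticoid receptor target genes (7 in number) and the 2 ubiquitous metallothioneins were followed in every mouse and tissue of a study of indeno(1,2,3-cd)pyrene (IP), a polycyclic aromatic hydrocarbon. The 9 genes were Fkbp5, Tsc22d3, Zbtb16, Sgk1, Ddit4, Errfi1, Cebpd, Mt1 and Mt2, of 20018 genes that could be named on the array. They were chosen by name and were found through the RefSeq accession of each probe, and each was measured by 1 probe. All mice were male Muta™Mouse animals aged about 13 weeks, gavaged every day for 28 days. Control mice received olive oil (vehicle), and exposed mice received 12.5, 25 or 50 mg/kg-bw/day of IP dissolved in olive oil. Lung, liver and forestomach were collected 72 hours after the last dose, and RNA was extracted from random sections. Lung was measured in 5 mice of each group, and liver and forestomach in 4 vehicle mice (mouse 4 had no array there) and 5 mice of each exposed group. The protocol counts 4 vehicle mice, whereas the sample labels number 5 in lung. On the slide that carried the lung of vehicle mouse 4, the vehicle forestomach was labelled mouse 3. The 5 vehicle lungs were treated as 5 separate mice, as labelled, and whether they were so was not tested. Each array carried the RNA of 1 tissue of 1 mouse, labelled with Cy5, against a universal reference RNA of 11 mouse cell lines, labelled with Cy3. The values below are log2(Cy5/Cy3) after within-array loess, so a value of 0 is the level of that gene in the reference, and levels are compared between samples for 1 gene and never between genes.

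Glucocorticoids bind a receptor in the cytoplasm that then enters the nucleus and activates genes through glucocorticoid response elements, and plasma corticosterone in mice follows stress and the time of day. Fkbp5 encodes a co-chaperone that lowers the receptor's affinity for hormone, Tsc22d3 (GILZ) an anti-inflammatory leucine zipper protein, Zbtb16 (PLZF) a zinc finger repressor, Sgk1 a kinase that regulates ion channels, Ddit4 (REDD1) an inhibitor of mTORC1, Errfi1 an inhibitor of EGF receptor signalling and Cebpd a transcription factor of the acute phase response. Metallothioneins bind zinc, copper and cadmium, are induced through metal response elements by the zinc sensor Mtf1, and respond to glucocorticoids as well.

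In the RefSeq annotation of GRCm38.p6, Fkbp5 lies at chr17:28398753-28486149, Tsc22d3 at chrX:140539528-140600522, Zbtb16 at chr9:48651797-48836225, Sgk1 at chr10:21882184-21999903 and Ddit4 at chr10:59949675-59951770. Errfi1 lies at chr4:150853796-150868889, Cebpd at chr16:15887286-15889545, Mt2 at chr8:94172618-94173567 and Mt1 at chr8:94178883-94180327.

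The 9 probes were well above background in Cy5 on all 58 arrays and saturated on none. Lung and forestomach arrays shared 5 slides, whereas liver arrays lay on 3 slides of their own and were scanned with another version of the scanner software, so for liver against the other tissues slide and tissue cannot be told apart. On the shared slides, lung lay in array row 1 and forestomach in row 2, and vehicle and the 3 doses lay in columns 1 to 4 in order. In these 2 tissues, array position cannot be told apart from dose or from tissue. Of 5 markers listed for each tissue, the median was highest in the tissue they mark for all 5 of lung (such as Sftpc, 6.78 to 8.53), all 5 of liver (such as Alb, 6.27 to 8.29) and 4 of forestomach (such as Krt4, 5.14 to 7.44). The exception was Trp63, a basal cell factor of squamous epithelium, with a median of 0.05 in forestomach against 0.44 in lung and 0.69 in liver. Scgb1a1, a club cell marker of the lung list (median 7.64 in lung), was well above background in all 19 forestomach samples as well, with a median of 5.08. The markers of 2 neighbouring tissues varied widely within a tissue. The 8 glandular stomach markers had a mean log2 ratio between 5.14 and 6.81 in 10 of 19 forestomach samples and between 0.63 and 2.11 in the other 9. The 4 brown fat markers had a mean log2 ratio between 2.85 and 3.65 in the lungs of vehicle mice 2 to 5, of 1.41 in vehicle mouse 1, and between 0.87 and 1.89 in the 15 exposed lungs. In bulk samples, fewer cells of a type and less RNA per cell cannot be told apart.

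The metallothioneins were lowest in liver and highest in forestomach among vehicle mice. Mt1 stood at -4.25, -4.28, -3.50 and -4.45 in the livers of vehicle mice 1, 2, 3 and 5, at -2.04, -1.73, -1.63, -1.92 and -2.0 in the lungs of mice 1 to 5, and at -0.98, 0.13, 0.40 and 0.34 in the forestomachs of mice 1, 2, 3 and 5. The ranges of the 3 tissues did not overlap. The difference of forestomach from liver was 4.09 ± 0.45 on the log2 scale (SE, limma, adjusted p = 6.66e-11), that of lung from liver 2.25 ± 0.43 (adjusted p = 1.66e-05), and that of lung from forestomach -1.84 ± 0.43 (adjusted p = 0.000531). Without the forestomach samples that held glandular stomach markers, an alternative chosen after the data were seen that leaves 1 vehicle forestomach, the difference of lung from forestomach was -0.88 and no longer passed (adjusted p = 0.389), while that of forestomach from liver was 3.14 (adjusted p = 0.000136). Mt2 followed the same order, with means of -3.84 ± 0.32 in liver (SD, n = 4), -2.76 ± 0.59 in lung (SD, n = 5) and 0.74 ± 0.40 in forestomach (SD, n = 4). Forestomach exceeded liver by 4.58 for Mt2, a 23.9-fold difference (limma, adjusted p = 2.51e-18), and lung exceeded liver by 1.08 (adjusted p = 0.00207), a step whose ranges overlapped. Vehicle mice 2, 3 and 5 were among the forestomach samples with glandular stomach markers. In mouse 1, the vehicle mouse without them, Mt1 was -0.98 and Mt2 0.29, still above every vehicle lung and liver.

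The promoter windows of these genes, 250 bases before to 50 after an annotated start in RefSeq (GRCm38.p6), are shown because Mt1 and Mt2 moved together more closely than any other tested pair in liver and forestomach (described below). Mt2 ends 5316 bases before Mt1 begins on chromosome 8, both on the plus strand. The capitals mark the core of the metal response element, searched as TGCACNC and TGCGCNC on both strands. The first window is chr8:94178839-94179138 and the other chr8:94172368-94172667. The Mt1 window counts from an annotated start that lies inside the Mt1 span given above, which begins at base 94178883. The marked Mt1 matches, here and below, therefore lie inside that span, and the distance of 5316 bases is measured to its beginning.
Mt1: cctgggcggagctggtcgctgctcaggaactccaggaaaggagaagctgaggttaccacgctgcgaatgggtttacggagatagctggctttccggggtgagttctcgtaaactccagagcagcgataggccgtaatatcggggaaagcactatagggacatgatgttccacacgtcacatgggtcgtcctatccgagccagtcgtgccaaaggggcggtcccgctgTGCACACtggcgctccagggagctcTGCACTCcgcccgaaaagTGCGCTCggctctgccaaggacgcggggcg
Mt2: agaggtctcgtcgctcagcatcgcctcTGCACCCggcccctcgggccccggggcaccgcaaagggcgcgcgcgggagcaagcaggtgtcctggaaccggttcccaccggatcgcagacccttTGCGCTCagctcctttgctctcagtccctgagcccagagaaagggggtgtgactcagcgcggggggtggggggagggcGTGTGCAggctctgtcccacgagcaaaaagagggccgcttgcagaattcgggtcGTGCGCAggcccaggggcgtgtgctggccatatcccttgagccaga
The Mt1 window held 3 matches and the Mt2 window 4, where 25.7% of all 32851 promoter windows held at least 1 and 0.517% held at least 4. The share with at least 3 was not counted. Of the other members, Ddit4 held 1 match in its window and Sgk1 held 1 in 1 of its 6 windows. A glucocorticoid response element, searched as GNACA and TGTNC held 3 bases apart, was found in 0.475% of all windows. Among the 7 genes with a promoter window (Zbtb16 and Cebpd had none), it was found once in Mt1 and once among the 6 windows of Sgk1, both on the plus strand. Relative to the annotated start of the window that held it, the match ran from base -94 to -82 in Mt1 and from base -188 to -176 in Sgk1. The stretches printed, chr8:94178987-94179015 and chr10:21993694-21993722, hold the match with its conserved arms in capitals and flanking bases on either side. The Mt1 match did not overlap the metal response element cores.
Mt1: cactatagGGACAtgaTGTTCcacacgtc
Sgk1: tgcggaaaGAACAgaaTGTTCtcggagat
A match describes these letters and does not show that the site is bound.

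The glucocorticoid-responsive genes did not share a tissue order in vehicle mice. Cebpd was highest in lung, at 0.26, 1.59, 1.88, 1.88 and 0.48 in mice 1 to 5, against -3.05, -1.95, -1.98 and -2.98 in the livers and -1.61, -0.91, -0.99 and -2.03 in the forestomachs of mice 1, 2, 3 and 5. Every lung lay above every liver and forestomach, and lung exceeded liver by 3.71 ± 0.25 (SE, limma, adjusted p = 1.74e-18), a 13.1-fold difference. Errfi1 was highest in liver, with a mean of 2.72 ± 0.92 (SD, n = 4) against 0.63 ± 0.60 in lung (SD, n = 5) and -0.95 ± 0.13 in forestomach (SD, n = 4). The 3 ranges of Errfi1 did not overlap, and forestomach was lower than liver by -3.67 ± 0.30 (SE, limma, adjusted p = 4.57e-15). Sgk1 was about equal in lung (0.09 ± 0.21, SD, n = 5) and forestomach (0.34 ± 0.33, SD, n = 4), which did not differ beyond their spread (limma, adjusted p = 0.303), and was 4.62-fold lower in liver than in lung (adjusted p = 5.19e-16). Tsc22d3 fell in order from lung (2.91 ± 0.90, SD, n = 5) to liver (2.04 ± 0.58, SD, n = 4) to forestomach (1.02 ± 0.34, SD, n = 4), each step passing limma's test (adjusted p = 0.012 and 0.00589), with ranges of neighbours that overlapped. The step from lung to liver was lost when lung mouse 2 or 4 or liver mouse 1 or 5 was left out (0.64 to 0.74) and with the log ratio of the scanner software (0.65, adjusted p = 0.0844). The step from liver to forestomach was lost with arrays centred on medians (-0.73, adjusted p = 0.304) and with forestomach samples holding glandular stomach markers left out (-1.31, adjusted p = 0.0581).

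Zbtb16 had like means in lung (4.24 ± 1.27, SD, n = 5) and liver (4.11 ± 0.85, SD, n = 4; limma, adjusted p = 0.901). It was lower in forestomach (2.55 ± 0.70, SD, n = 4), with a difference of -1.55 ± 0.61 from liver (SE) that passed the test (limma, adjusted p = 0.0468). The call was lost with normexp background correction (-1.53, adjusted p = 0.0526), slide as a random block (-1.54, adjusted p = 0.0567) and arrays centred on medians (-0.97, adjusted p = 0.303). It was also lost without any 1 of several mice. With forestomach samples holding glandular stomach markers left out, which leaves 1 vehicle forestomach, the difference was -2.23 and the call was lost as well. Fkbp5 was lower in lung than in forestomach, with a difference of -0.98 ± 0.34 (SE, limma, adjusted p = 0.0195) that was lost without lung mouse 1 or 5 or forestomach mouse 2 (-0.91 to -0.79), with arrays centred on medians (-0.29, adjusted p = 0.676) and with forestomach samples holding glandular stomach markers left out (-0.90, adjusted p = 0.303), while the liver mean of -0.51 ± 0.80 (SD, n = 4) differed from neither beyond the spread. Ddit4 passed the test between no pair of tissues, though between lung and liver it came close (limma, adjusted p = 0.0524). That difference passed with normexp background correction or arrays centred on medians (0.61 and 1.15). It also passed when lung mouse 1, 2 or 5 or liver mouse 3 was left out (0.63 to 0.76). The means of Ddit4 were -1.48 ± 0.47 in lung (SD, n = 5), -2.06 ± 0.40 in liver and -1.90 ± 0.61 in forestomach (SD, n = 4 each). In all, 6 of 9 members passed the test between vehicle lung and liver (5 higher in lung and Errfi1 lower), 7 between lung and forestomach (4 higher in lung, 3 lower) and 7 between forestomach and liver (4 higher in forestomach, 3 lower). Of all 55681 probes, 26.9%, 19.5% and 22.7% passed in these comparisons. A member was called, here and below, where its adjusted p did not exceed 0.05 and its change reached 1.5-fold. For the linear trend over dose and for effects compared between tissues, no limit was set on the change.

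**Figure D1:**
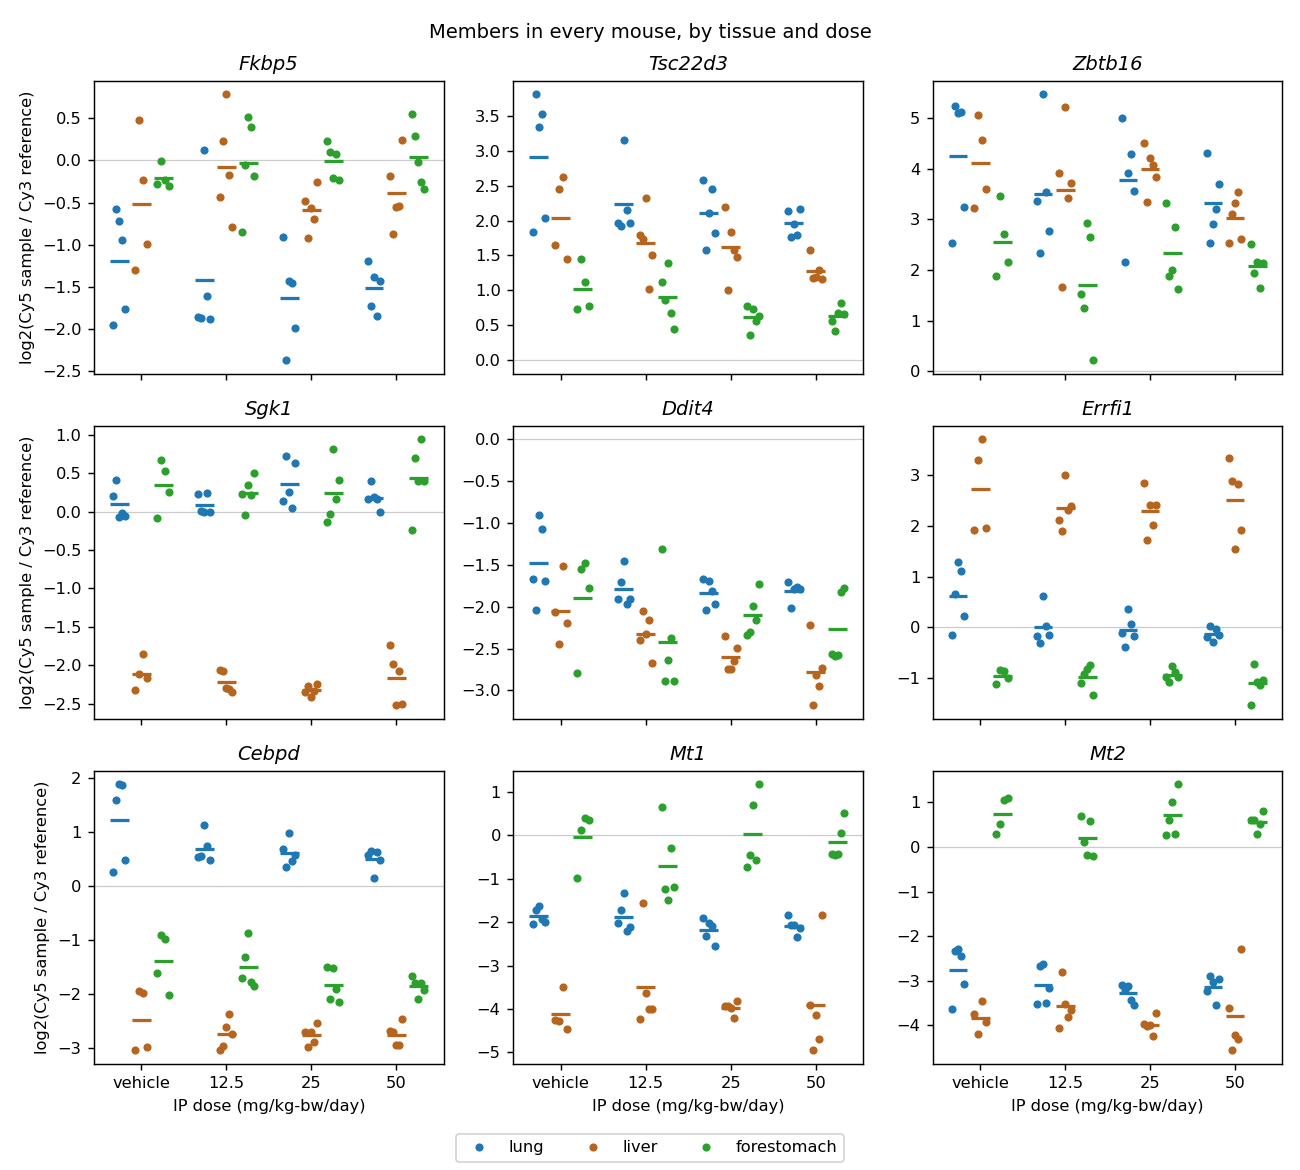
Level of each of the 9 genes, log2(Cy5 sample/Cy3 reference) on the vertical axis, in every mouse (points) by dose on the horizontal axis and tissue by colour, with horizontal bars for group means. The group means of the metallothioneins are highest in forestomach and lowest in liver at every dose, while single mice of 1 group spread widely in lung for Tsc22d3, Zbtb16 and Cebpd.

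In lung, none of the 9 members passed the test at any dose, and most stood below the vehicle mean. From the lowest to the highest dose, the members below 0 numbered 9, 8 and 8 of 9, with median log2 differences of -0.34, -0.46 and -0.38, where the medians over all probes were 0.0019, 0.0015 and 0.00052. The doses share the same vehicle lungs and several members varied together across mice (described below), so these counts are not independent. Of all probes, 0%, 0.0126% and 0.079% were called (limma), and none of these was a member. At an unadjusted p under 0.05, 3, 6 and 3 of the 9 members stood out, against 3.92%, 6.53% and 8.8% of all probes.

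Errfi1 came nearest to the threshold. Its level was -0.15, 0.67, 1.28, 1.11 and 0.22 in the lungs of vehicle mice 1 to 5 and -0.19, 0.02, -0.29, -0.02 and -0.14 in mice 16 to 20, which had received 50 mg/kg-bw/day. All 5 exposed mice lay below the vehicle mean, and vehicle mouse 1 lay among them, so the groups overlapped. The difference was -0.75 ± 0.22 (SE; limma, adjusted p = 0.182; exact two-sided permutation test, p = 0.0317, where 5 against 5 mice allow no less than 0.00794). Adding slide as a block brought Errfi1 to an adjusted p of 0.0381 at this dose, and leaving out vehicle mouse 1 gave a call as well, with a difference of -0.94.

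Tsc22d3 stood at 1.84, 3.80, 3.34, 3.52 and 2.04 in the lungs of vehicle mice 1 to 5 and at 2.14, 1.77, 1.96, 1.79 and 2.16 in mice 16 to 20. Vehicle mice 2, 3 and 4 were high, and vehicle mice 1 and 5 lay within the exposed range. Mouse 4 is the vehicle mouse that was labelled in lung alone. The difference at 50 mg/kg-bw/day was -0.95 ± 0.32 (SE; limma, adjusted p = 0.293; exact permutation test, p = 0.103). Cebpd, with the vehicle values given above and 0.57, 0.65, 0.15, 0.63 and 0.48 in mice 16 to 20, differed by -0.72 ± 0.25 (SE; limma, adjusted p = 0.320; exact permutation test, p = 0.127), again with vehicle mice 1 and 5 within the exposed range. With arrays centred on medians, the difference was -0.44 for Cebpd and -0.48 for Errfi1.

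Zbtb16 showed the widest spread among mice. Its levels were 2.52, 5.23, 5.09, 5.11 and 3.24 in the lungs of vehicle mice 1 to 5, 3.35, 2.33, 5.46, 3.54 and 2.78 in mice 6 to 10 (12.5 mg/kg-bw/day), and 4.31, 2.52, 2.90, 3.19 and 3.69 in mice 16 to 20. Mouse 8 was as high as vehicle mice 2, 3 and 4, and the groups overlapped throughout. The pooled SD within dose groups was 1.08, and the difference at 50 mg/kg-bw/day was -0.92 ± 0.60 (SE; limma, adjusted p = 0.750). Fkbp5 stood out in mouse 8 as well, at 0.12 against -1.86, -1.87, -1.61 and -1.88 in the other mice of the lowest dose, and its group differences from vehicle were -0.23, -0.44 and -0.33. Ddit4 differed by -0.31, -0.36 and -0.33 and Sgk1, the member that stood above vehicle at the 2 higher doses, by 0.27 and 0.087.

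For the metallothioneins of the lung, the pooled SD within dose groups was 0.26 for Mt1 and 0.40 for Mt2. Mt1 was at -2.03, -1.71, -1.32, -2.21 and -2.12 in mice 6 to 10, at -1.90, -2.32, -2.01, -2.09 and -2.54 in mice 11 to 15 (25 mg/kg-bw/day) and at -1.83, -2.06, -2.06, -2.34 and -2.14 in mice 16 to 20. Every group overlapped the vehicle range, and the differences were -0.014, -0.31 and -0.22. Mt2 differed by -0.34, -0.52 and -0.38, with no adjusted p below 0.703 (limma).

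**Figure D2:**
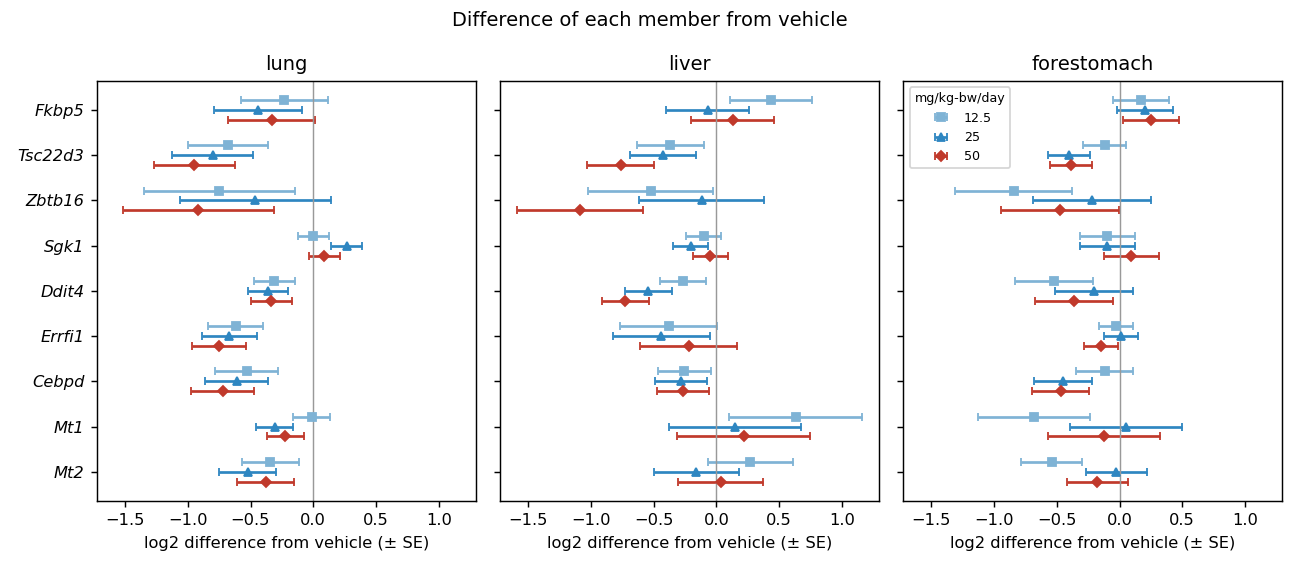
Difference of each member's mean from the vehicle mean of the same tissue, on the log2 scale (horizontal axis, points with SE from limma), for the 3 doses. Most points lie to the left of 0 in lung, and no member passed the adjusted threshold in any tissue.

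Brown fat markers moved with the vehicle and exposed lungs. Ucp1, the uncoupling protein that defines brown fat, was at -0.13, 3.91, 3.88, 4.73 and 3.30 in the lungs of vehicle mice 1 to 5 and between -0.10 and 0.47 in the 15 exposed lungs, and it fell by 3.05 on the log2 scale at 50 mg/kg-bw/day (limma, adjusted p = 0.0164). Of the 4 brown fat markers, Ucp1 was the 1 called at that dose. Elovl3, part of the marker mean, was well above background on 2 of 20 lung arrays, with a median of -0.07. In a fit with the mean brown fat marker level as a covariate, chosen after the data were seen, the difference at 50 mg/kg-bw/day became 0.073 for Tsc22d3, 0.10 for Cebpd and -0.19 for Errfi1. The marker levels of vehicle mice 2, 3, 4 and 5 lay above those of all 15 exposed lungs. Dose and marker level can therefore hardly be told apart by this fit. Vehicle mouse 5, with a brown fat marker level of 3.32, had lower levels of these genes than vehicle mice 2, 3 and 4, and mouse 8, with 1.63, had the highest levels of its dose group. Of the 6 white fat markers, all 6 were below 0 and none was called at that dose, and their mean level lay between 1.48 and 3.92 in vehicle lungs and between 1.04 and 2.27 at 50 mg/kg-bw/day. The heart muscle markers lay between 1.89 and 4.65 and between 0.039 and 2.96. The part of brown fat, white fat and heart muscle in the result was not tested.

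**Figure D3:**
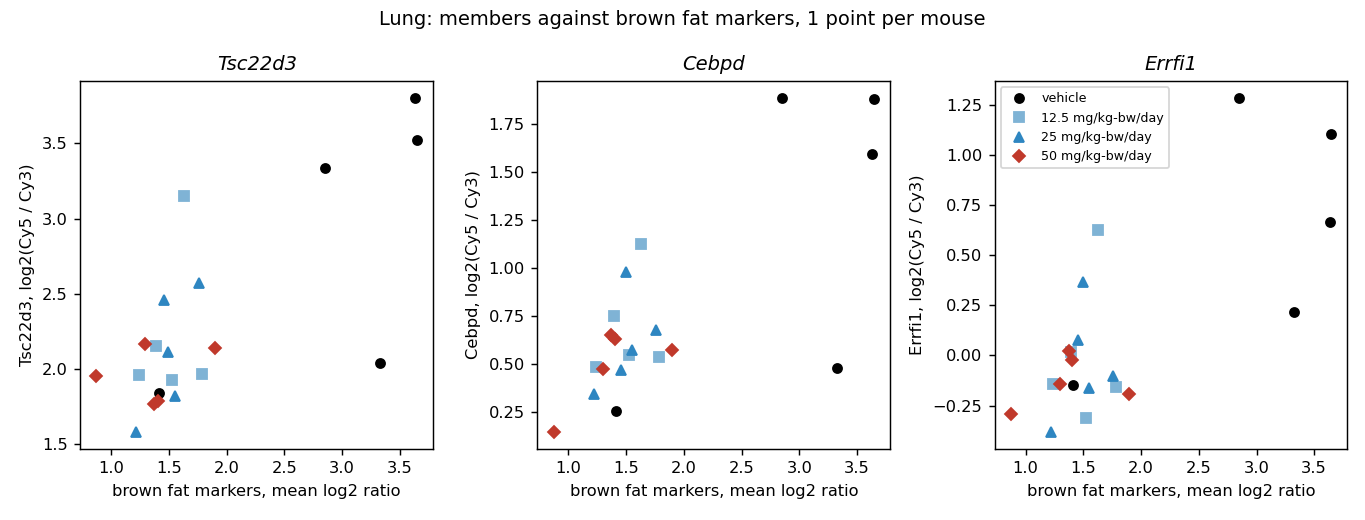
Tsc22d3, Cebpd and Errfi1 in lung (vertical axes, log2(Cy5/Cy3)) against the mean log2 ratio of the brown fat markers (horizontal axis), 1 point per mouse with dose by colour and symbol. Vehicle mice 2 to 5 lie to the right of all exposed mice, and vehicle mouse 5 lies below vehicle mice 2, 3 and 4 in all 3 genes.

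None of 12 clock genes was called in lung. At an unadjusted p under 0.05, 1, 6 and 8 of the 12 stood out at the 3 doses, against 3.92%, 6.53% and 8.8% of all probes. Dbp, a transcription factor of the clock output, was at -2.80, -2.98, -0.56, -0.48 and -1.80 in vehicle mice 1 to 5 and between 0.18 and 0.98 in mice 16 to 20, a difference of 2.22 ± 0.61 (SE; limma, adjusted p = 0.157). Nr1d1, a repressor of the core loop, differed by 1.44 ± 0.40 (SE; adjusted p = 0.161). Their part in the members' values was not tested.

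In liver, none of the 9 members passed the test at any dose, and neither did any other probe: 0%, 0% and 0% of probes were called at the 3 doses. At an unadjusted p under 0.05, 0, 1 and 3 members stood out (limma), against 2.6%, 4.44% and 6.87% of all probes. The members below 0 numbered 6, 8 and 6 of 9, where 48.6%, 48.3% and 47.9% of all probes lay above 0. Ddit4, the mTORC1 inhibitor, had the lowest adjusted p among them. It was at -2.06, -2.45, -1.51 and -2.20 in vehicle mice 1, 2, 3 and 5, at -2.39, -2.05, -2.32, -2.16 and -2.67 in mice 6 to 10, at -2.35, -2.74, -2.75, -2.65 and -2.50 in mice 11 to 15, and at -2.22, -3.18, -2.82, -2.95 and -2.74 in mice 16 to 20. Of the 5 mice at 50 mg/kg-bw/day, 4 lay below every vehicle mouse and mouse 16 lay within the vehicle range. The differences were -0.27, -0.54 and -0.73, with an SE of 0.19 each (limma, adjusted p = 0.485 at 50 mg/kg-bw/day; exact permutation test, p = 0.0238, where 4 against 5 mice allow no less than 0.00794).

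Tsc22d3 was at 1.66, 2.45, 2.62 and 1.44 in the livers of vehicle mice 1, 2, 3 and 5 and at 1.58, 1.18, 1.19, 1.30 and 1.16 in mice 16 to 20. Mouse 16 was the exposed mouse within the vehicle range. The difference was -0.76 ± 0.27 (SE; limma, adjusted p = 0.713; exact permutation test, p = 0.0159). Zbtb16, at 3.22, 5.05, 4.56 and 3.59 in the vehicle mice and 2.53, 3.11, 3.31, 3.54 and 2.61 in mice 16 to 20, differed by -1.09 ± 0.50 (SE; limma, adjusted p = 0.722; exact permutation test, p = 0.0476), with 3 of 5 exposed mice below every vehicle mouse. With arrays centred on medians these 3 liver differences at 50 mg/kg-bw/day were -0.23 for Ddit4, -0.27 for Tsc22d3 and -0.41 for Zbtb16. Fkbp5 showed differences of 0.43, -0.07 and 0.13 with SE of 0.33.

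The metallothioneins of the liver were set apart by 2 mice. Mt1 was -1.56 in mouse 7 (12.5 mg/kg-bw/day) and -1.83 in mouse 20 (50 mg/kg-bw/day), while the other 17 livers lay between -4.95 and -3.50. Mt2 was -2.80 and -2.29 in the same mice, against -4.57 to -3.46 elsewhere. In the group of mouse 20, the remaining livers stood at -3.90, -4.95, -4.13 and -4.69 for Mt1, so the group difference of 0.22 ± 0.53 (SE; limma, adjusted p = 0.925) averages over unlike mice. Saa1, a serum amyloid A of the acute phase, was 7.94 in mouse 7 and 7.19 in mouse 20 and between 4.87 and 6.96 in the other livers. Lcn2 (lipocalin 2) was 2.06 and 2.08 there and between -0.80 and 1.67 elsewhere. Saa1 and Lcn2 were picked from the list of 9 acute phase genes after their values were seen, and the other genes of that list are not given here. Their part in the metallothionein values was not tested. Neither mouse stood apart in the lung, with Mt1 at -1.71 and -2.14. Counted from the highest, Mt1 in forestomach ranked 18 of 19 in mouse 7 and 4 of 19 in mouse 20.

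In forestomach, no member and no other probe passed the test, with 0%, 0% and 0% called at the 3 doses and 1, 1 and 1 member at an unadjusted p under 0.05 (limma), against 4.12%, 3.6% and 3.89% of all probes. Members below 0 numbered 8, 6 and 7 of 9, where 49.3%, 53.1% and 51.2% of all probes lay above 0. Tsc22d3 was at 0.73, 1.45, 1.11 and 0.78 in vehicle mice 1, 2, 3 and 5, at 0.78, 0.37, 0.73, 0.56 and 0.64 in mice 11 to 15, and at 0.57, 0.42, 0.68, 0.82 and 0.67 in mice 16 to 20. Vehicle mice 2 and 3 lay above all of these exposed mice, and vehicle mice 1 and 5 lay within the exposed range. The differences of -0.40 and -0.39 at 25 and 50 mg/kg-bw/day each had an exact permutation p of 0.0317 and did not pass after adjustment over all probes (limma, adjusted p = 1.00). With arrays centred on medians they were -0.10 and -0.027. Cebpd stood apart from vehicle by -0.45 and -0.47 at the same doses, with vehicle mouse 5 at -2.03 inside the exposed range.

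Metallothioneins in forestomach moved with the markers of glandular stomach, the acid-secreting part next to it. In the 10 samples with those markers, Mt1 lay between -1.18 and 1.17 with a median of 0.37, and in the other 9 between -1.49 and -0.30 with a median of -0.56. The medians of Mt2 were 0.75 and 0.29, those of Ddit4 -1.78 and -2.57, and those of Sgk1 0.46 and -0.03, while for Fkbp5 the order was the opposite, at -0.23 and 0.23. Zbtb16, Errfi1 and Cebpd were lower and Tsc22d3 was higher in the median of the 10, with ranges that overlapped almost fully. Samples with the markers numbered 3 of 4 in vehicle mice and 2, 2 and 3 of 5 at the 3 doses. With the marker level as a covariate, chosen after the data were seen, the number of members called stayed 0 at every dose. Mice 10 and 18, at -1.18 and -0.43 for Mt1, were low although they held the markers.

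**Figure D4:**
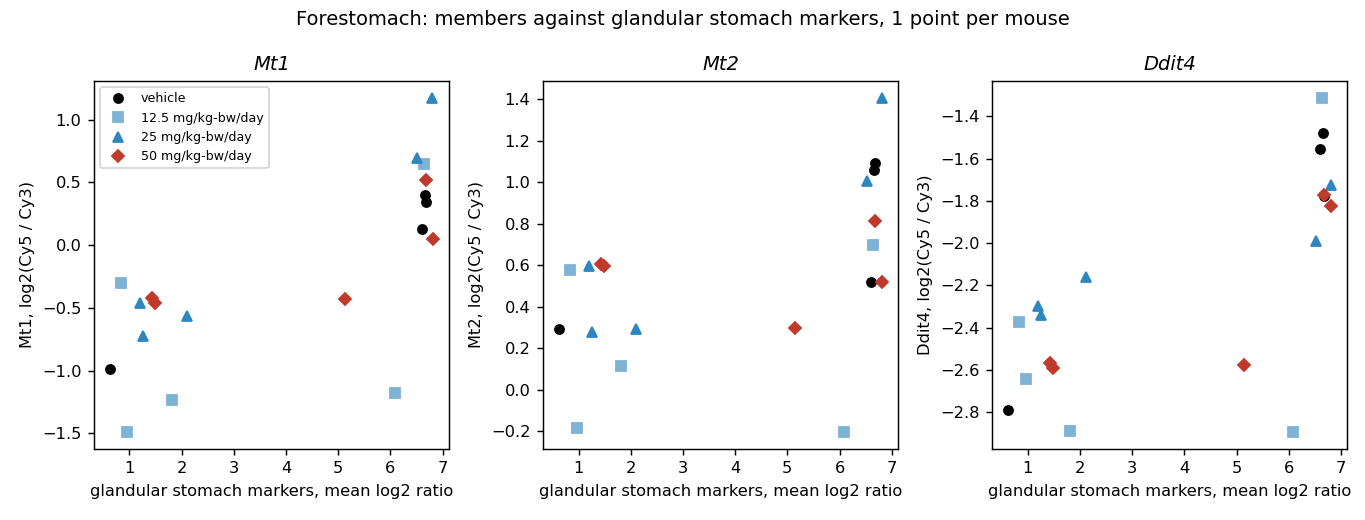
Mt1, Mt2 and Ddit4 in forestomach (vertical axes, log2(Cy5/Cy3)) against the mean log2 ratio of the 8 glandular stomach markers (horizontal axis), 1 point per mouse with dose by colour and symbol. The samples fall into a set of 9 with marker levels up to 2.11 and a set of 10 from 5.14 upwards, and the highest Mt1 value of every dose group lies in the second set.

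A linear trend over dose, fitted over all mice of a tissue, called no member either. In lung 0.14% of probes had an adjusted p of at most 0.05, in liver 0% and in forestomach 0% (limma), and 3, 2 and 2 members had an unadjusted p under 0.05, against 8.81%, 6.98% and 4.3% of all probes. The lowest adjusted p among the members was 0.339 in lung, for Errfi1 (-0.64 per 50 mg/kg-bw/day), and 0.339 in liver, for Ddit4 (-0.71 per 50 mg/kg-bw/day). The effect of 50 mg/kg-bw/day was also compared between tissues. No member was called in any of the 3 comparisons, and none had an unadjusted p under 0.05. Of all probes, 0.0162% differed between lung and liver, 0.0144% between lung and forestomach and 0.00359% between forestomach and liver. For Errfi1, the effect in lung minus that in liver was -0.53 ± 0.40 (SE; limma, adjusted p = 0.813), and for Ddit4 it was 0.39 ± 0.33 (SE; adjusted p = 0.838).

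Of 12 relations tested between members within a tissue, 9 passed, 8 of them positive. Relations were computed on deviations from the mean of the tissue and dose group, so that dose differences did not enter, and tested with 100000 permutations within dose groups (two-sided, Benjamini-Hochberg over 12 relations). Mt1 and Mt2 moved together in each tissue, with r = 0.68 in lung (rho = 0.72, n = 20 mice, permutation test, adjusted p = 0.00218), 0.94 in liver (rho = 0.89, n = 19, adjusted p = 6e-05) and 0.90 in forestomach (rho = 0.89, n = 19, adjusted p = 6e-05). Without the 2 mice farthest from the median of Mt1 the values were 0.64, 0.86 and 0.86. In lung, Fkbp5 was tied to Zbtb16 (r = 0.92, rho = 0.94) and Tsc22d3 (r = 0.90, rho = 0.96), both with a permutation adjusted p of 6e-05. Without the 2 mice farthest from the median of Fkbp5, r was 0.90 and 0.93. In liver, r was 0.35 between Fkbp5 and Zbtb16 and 0.62 between Fkbp5 and Tsc22d3, and the latter dropped to 0.44 without the 2 farthest mice and no longer passed (permutation test, adjusted p = 0.166). In forestomach, r was 0.59 between Fkbp5 and Zbtb16 (rho = 0.63, n = 19 mice, permutation test, adjusted p = 0.0361) and 0.009 between Fkbp5 and Tsc22d3 (adjusted p = 0.980).

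Fkbp5 and Mt1 went the same way in lung (r = 0.81, rho = 0.72; permutation test, adjusted p = 0.00072) and opposite ways in forestomach (r = -0.61, rho = -0.57; permutation test, adjusted p = 0.018). In liver r was 0.49 (adjusted p = 0.0553). The negative relation no longer passed when the glandular stomach marker level was removed as well (r = -0.14; permutation test, adjusted p = 0.704) or without the 2 farthest mice (r = -0.36; adjusted p = 0.166). Sgk1, the ion channel kinase, had an r below 0 with each of the other 8 members in lung, from -0.65 with Ddit4 to -0.11 with Cebpd, as a description without a test.

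**Figure D5:**
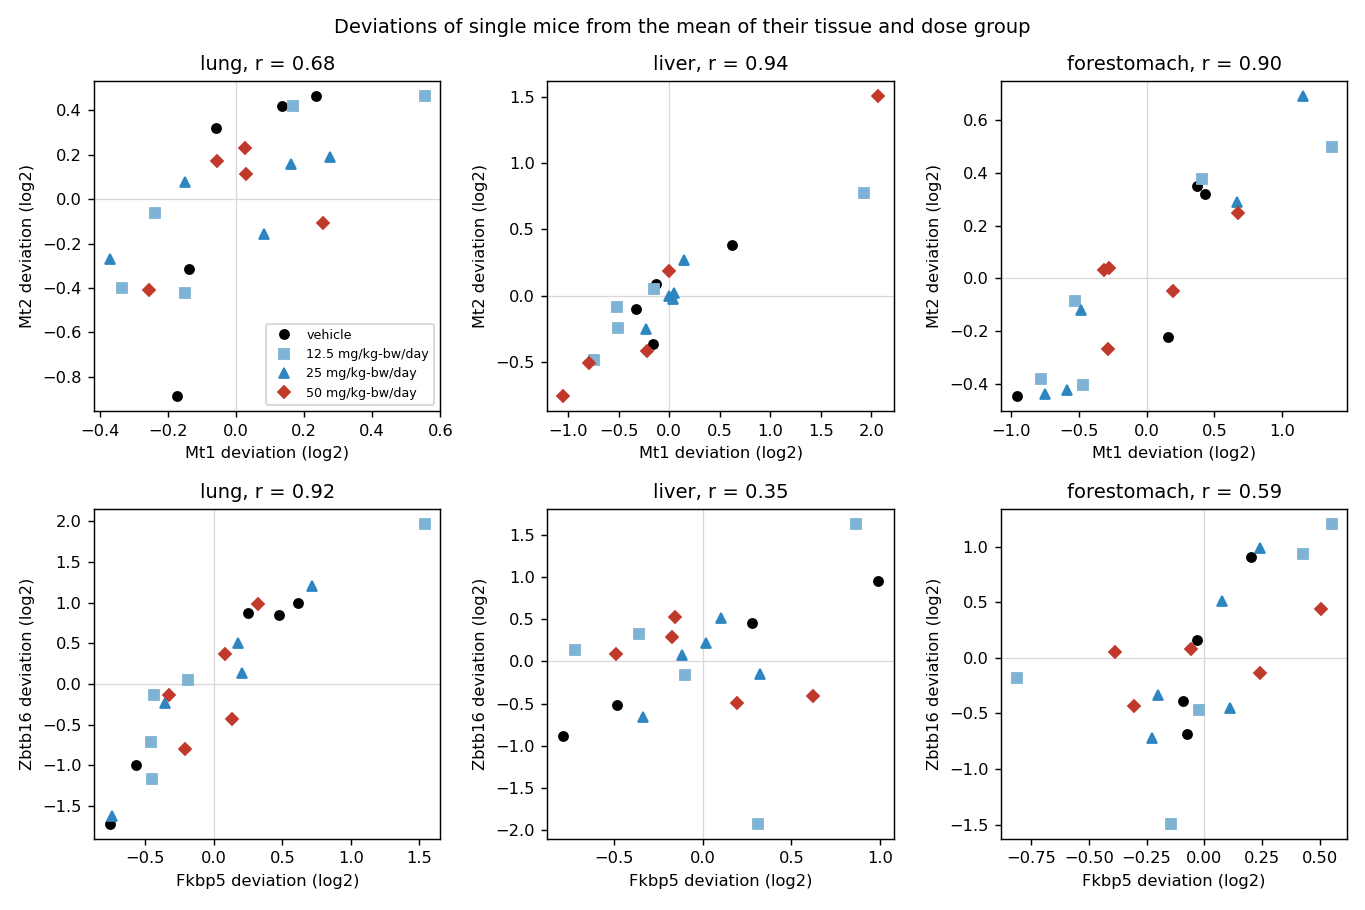
Deviations of single mice from the mean of their tissue and dose group (log2), Mt1 against Mt2 in the upper row and Fkbp5 against Zbtb16 in the lower row, with dose by colour and symbol and Pearson's r above each panel. Pearson's r of the metallothioneins is 0.68 in lung, 0.94 in liver, where mice 7 and 20 lie far out, and 0.90 in forestomach, and that of Fkbp5 and Zbtb16 is 0.92 in lung.

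Deviations of the same member were also compared between tissues of a mouse. Of 27 relations (9 members in 3 pairs of tissues), 23 were above 0 and 11 had an adjusted p of at most 0.05 (permutation test, Benjamini-Hochberg over 27). Their adjusted p lay between 0.0161 and 0.0412 and rho between 0.53 and 0.80 (n = 19 mice). They were Tsc22d3 in all 3 pairs (r between 0.75 and 0.78), Zbtb16, Cebpd and Errfi1 between lung and liver (r = 0.71, 0.83 and 0.72) and between lung and forestomach (r = 0.77, 0.79 and 0.49), and Fkbp5 and Ddit4 between lung and liver (r = 0.73 and 0.67). For the metallothioneins, r lay between -0.41 and 0.25, and none of their relations passed. For Sgk1, r lay between -0.13 and 0.16. Without the 2 mice farthest from the median in the first-named tissue of each pair, 2 of 27 passed over the remaining 17 mice (Zbtb16 and Cebpd between lung and forestomach). Mice far out in the second tissue alone were kept. Between lung and liver, r was then 0.69 for Fkbp5, 0.72 for Tsc22d3, 0.54 for Zbtb16, 0.73 for Cebpd, 0.56 for Errfi1 and 0.40 for Ddit4. Between lung and forestomach it was 0.47 for Tsc22d3, 0.71 for Zbtb16, 0.85 for Cebpd and 0.50 for Errfi1, and between liver and forestomach 0.72 for Tsc22d3. Without vehicle mice none passed over 15 mice, with r for Tsc22d3 at 0.70, 0.61 and 0.72. With brown fat and glandular stomach marker levels removed none passed, and r for Tsc22d3 was 0.66, 0.63 and 0.76. Lung and forestomach arrays shared slides, and with slide means removed 12 passed.

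The genes whose deviations were most like those of Fkbp5 over all 58 arrays, among 14135 named genes, were Fbxo31 (r = 0.74), Per1 (r = 0.73), Hif3a (r = 0.71), Pex11a (r = 0.71) and Dgat2 (r = 0.69). Tsc22d3 and Zbtb16 followed at ranks 6 and 7, Cebpd at 11 and Errfi1 at 39. For Mt1 they were Mt2 (r = 0.85), Uhrf1bp1l (r = 0.72), Ticam1 (r = 0.69), Gm5523 (r = 0.68) and Plpp2 (r = 0.68), and Ddit4 stood at rank 28 with r = 0.63. The arrays of a mouse and of a tissue are not independent, so these values describe likeness only.

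A list of 20 further glucocorticoid-responsive genes gave no call at any dose in any tissue. The 3 doses of a tissue share its vehicle mice, so their counts are not independent. In lung, 15, 17 and 17 of the 20 lay below 0 at the 3 doses, with medians of -0.22, -0.21 and -0.16, and 5, 4 and 8 had an unadjusted p under 0.05 (limma). Of all probes, 50.8%, 50.7% and 50.2% lay above 0 and 3.92%, 6.53% and 8.8% had such a p. Those with the smallest p at 50 mg/kg-bw/day in lung were Pdk4, the kinase that shuts off pyruvate dehydrogenase (-1.24 ± 0.32, SE, adjusted p = 0.123), and Bcl6, a transcriptional repressor (-0.57 ± 0.16, SE, adjusted p = 0.160). In liver they were the gluconeogenic enzyme Pck1 (-1.05 ± 0.33, SE, adjusted p = 0.666) and Igfbp1 (-1.52 ± 0.53, SE, adjusted p = 0.713), and 11 of 20 lay below 0, where 47.9% of all probes lay above it. In forestomach 10 of 20 lay below 0, where 51.2% of all probes lay above it, and Pck1 (2.07) and Bcl6 (-0.37) had the smallest p.

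The receptor itself, its partners and the enzymes that handle the hormone (9 genes) gave no call with dose. In lung, Ptges3 and Hsp90aa1, of the chaperone complex that holds the receptor, differed by -0.34 and -0.67 at 50 mg/kg-bw/day (limma, adjusted p = 0.228 and 0.370). In liver, the smallest p was that of Hsd11b1, which regenerates active hormone (-0.26), and Serpina6, the plasma carrier of corticosteroids (-0.34). In forestomach it was that of Hsp90aa1 (-0.79) and Ptges3 (-0.15). Among vehicle tissues, the receptor gene Nr3c1 was higher in lung than in liver by 1.28 (limma, adjusted p = 1.5e-12) and than in forestomach by 1.72 (adjusted p = 1.4e-16).

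Of 9 genes of metal handling, none was called with dose. Mtf1, the zinc sensor, differed by -0.35 ± 0.10 (SE; limma, adjusted p = 0.177) in lung at 50 mg/kg-bw/day and by -0.20 in forestomach. Mt3, the brain metallothionein, differed by -0.17 in lung, -0.34 in forestomach and -0.75 in liver, and the zinc importer Slc39a4 by -0.38 in liver. Mt4, the metallothionein of stratified squamous epithelium, was higher in vehicle forestomach than in liver by 7.34 (limma, adjusted p = 3.5e-35). Of 9 acute phase genes, none was called with dose. Socs3 and Orm2 had the smallest p in lung (-0.18 and -0.25), Orm1 and Lcn2 in liver (-0.59 and 0.93), and Orm2 and Socs3 in forestomach (0.96 and -0.15). Among the clock genes, Clock and Npas2 had the smallest p in liver (-0.41 and 0.19), and Dbp and Nr1d1 in forestomach (1.28 and 0.92).

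Between vehicle tissues, genes of these lists were called (limma) where 26.9% of all probes were called between lung and liver, 19.5% between lung and forestomach and 22.7% between forestomach and liver. Of the 20 further glucocorticoid-responsive genes, 8 were higher in lung than in liver (Per1, Dusp1, Klf9, Nfkbia, Hif3a, Cdkn1c, Lcn2 and Crispld2) and 4 lower (Tat, Pck1, Igfbp1 and Glul). Against forestomach, 9 were higher in lung (Per1, Dusp1, Klf9, Nfkbia, Angptl4, Bcl6, Cdkn1c, Lcn2 and Arrdc2) and 2 lower (Pdk4 and Il1r2). Forestomach exceeded liver for 5 (Nfkbia, Pdk4, Cdkn1c, Il1r2 and Crispld2) and was below it for 8 (Klf9, Angptl4, Tat, Pck1, Igfbp1, Glul, Bcl6 and Arrdc2). Pck1, of hepatic gluconeogenesis, and Igfbp1, a hepatic binding protein of insulin-like growth factors, differed between lung and liver by -7.33 and -7.68 on the log2 scale. Among the genes of the receptor and the hormone, Hsp90aa1 and Hsp90ab1 were higher in lung than in liver beside Nr3c1, and Hsd11b1, Serpina6 and Fkbp4 lower. Nr3c1, Hsd11b1 and Hsp90ab1 were higher in lung than in forestomach, and forestomach was above liver for Hsp90aa1 and below it for Hsd11b1 and Serpina6. Of the metal handling genes, Slc39a10 was higher in lung than in liver and Mt3, Slc30a10 and Slc39a14 lower, Slc39a4 was higher in lung than in forestomach and Mt3, Mt4 and Slc39a14 lower, and forestomach was above liver for Mt4 and Slc39a10 and below it for Slc30a10, Slc39a4 and Slc39a14. Of the acute phase genes, Saa1, Saa2, Hp, Orm1, Orm2 and Fgb were lower in both lung and forestomach than in liver, Saa3 was lower in forestomach than in liver, Lcn2 was higher in lung than in liver, and Saa3, Hp, Lcn2 and Socs3 were higher in lung than in forestomach. Of the clock genes, Per1 and Tef were higher in lung than in both other tissues, Per2 was higher in lung than in forestomach and lower in forestomach than in liver, Nr1d2 was lower in forestomach than in liver, and Clock was higher in forestomach than in both.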

How the data were processed

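Two-colour Agilent arrays of 58 samples were analysed. Per the file headers, the authors' scanner files hold the median intensity of each channel, a log10 processed ratio (used in 1 alternative) and spot flags from Agilent Feature Extraction 10.7.3.1 (lung, forestomach) or 11.0.1.1 (liver). The authors' deposited normalized log2 ratios served as an alternative in lung and forestomach only, since in liver they did not correlate with the scanner values. Per the study's methods, Cy5 was the sample.

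Here log2(Cy5/Cy3) of median intensities, without background subtraction, was normalized by loess within each array, with control spots at weight 0 and outlier spots left out. Probes were named through RefSeq accessions (26413 of 55681). Each dose and the linear trend were fitted within a tissue over all mice, and tissues in 1 model over all 58 arrays, with least squares and limma's variance moderation in place of the study's MAANOVA, which was not run (limma 3.58.1, R 4.3.3), adjusted by Benjamini-Hochberg over all probes, and tested on simulated data. A mouse number names 1 animal in the labels and so pairs its tissues (consensus correlation over probes 0.045). Whether mice were separate litters is not given in the sources used here.

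The members, gene lists, markers and motifs were chosen with earlier results of these data known. The 9 members are named throughout. From each other gene list those called and the 2 with the smallest p at 50 mg/kg-bw/day are named, from cell type marker lists only those beside a result, and of Fkbp5 and Mt1 the 5 most alike genes. Saa1, Lcn2 in single livers, and the tissue check markers shown were named after their values were seen. The number of arrays limits precision.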

Additional observations from a re-analysis of the deposited data

Results flagged for a closer look

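Of 108 groups of 4 or 5 mice (9 genes, 3 tissues, 4 dose groups), 4 held a mouse far from the others of its group by Dixon's test, a rate that chance alone gives in about 1 of 20 groups. In lung at 12.5 mg/kg-bw/day, mouse 8 was at 0.12 for Fkbp5 where the next mouse was at -1.61, and at 3.15 for Tsc22d3 where the next was at 2.15. In lung at 50 mg/kg-bw/day, mouse 17 was at -2.01 for Ddit4 where the nearest mouse was at -1.79. In liver at 12.5 mg/kg-bw/day, mouse 7 was at -1.56 for Mt1 where the next was at -3.64.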

How the results depend on the processing

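The count of members called kept within 1.5 times of its value in every comparison and alternative except the following. At 50 mg/kg-bw/day in lung it was 1 (Errfi1) with slide as a block, and from 0 to 1 when each mouse was left out in turn. Between vehicle forestomach and liver it was 4 in place of 7 when forestomach samples with glandular stomach markers were left out, which leaves 1 vehicle forestomach assumed to vary like the other groups. Of relations between tissues, 2 passed without the 2 farthest mice, 0 without vehicle mice and 0 with marker levels removed, in place of 11. With mouse as a random block (replicate block, paired tissues), the members called between vehicle tissues stayed 6, 7 and 7. Reversed values were 0.023 for Mt2 in forestomach at 12.5 mg/kg-bw/day with arrays centred on medians and, with the brown fat marker level as a covariate in lung, 0.25, 0.14 and 0.073 for Tsc22d3, 0.22, 0.15 and 0.10 for Cebpd at the 3 doses and 0.025 for Mt2 at 25 mg/kg-bw/day. The cause was not tested. Centring on medians moved differences at 50 mg/kg-bw/day from -0.73 to -0.23 for Ddit4, from -0.76 to -0.27 for Tsc22d3 and from -1.09 to -0.41 for Zbtb16 in liver, from -0.39 to -0.027 for Tsc22d3 in forestomach (from -0.40 to -0.10 at 25 mg/kg-bw/day), and from -0.75 to -0.48 for Errfi1 and from -0.72 to -0.44 for Cebpd in lung. Covariates, samples without glandular stomach markers and relations without vehicle mice or with marker levels removed were alternatives chosen after seeing the data. A mean over all probes of a gene was not run, since each member had 1 probe. Between vehicle tissues, a call of Ddit4 between lung and liver was gained with normexp (0.61), with arrays centred on medians (1.15) and without certain single mice. Calls of Zbtb16, Fkbp5 and Tsc22d3 were lost when certain single mice were left out. The following calls were lost over all mice, with calls gained left out of the list. With the log ratio of the scanner software these were Tsc22d3 between lung and liver (0.65, adjusted p = 0.0844) and Zbtb16 between lung and forestomach (1.46, adjusted p = 0.0560). With arrays centred on medians they were Fkbp5 between lung and forestomach (-0.29, adjusted p = 0.676) and, between forestomach and liver, Tsc22d3 (-0.73, adjusted p = 0.304) and Zbtb16 (-0.97, adjusted p = 0.303). The last was lost with normexp (-1.53, adjusted p = 0.0526) and slide as a random block (-1.54, adjusted p = 0.0567) as well. With samples holding glandular stomach markers left out they were Fkbp5 (-0.90, adjusted p = 0.303), Zbtb16 (2.37, adjusted p = 0.0743) and Mt1 (-0.88, adjusted p = 0.389) between lung and forestomach, and Tsc22d3 (-1.31, adjusted p = 0.0581), Zbtb16 (-2.23, adjusted p = 0.106) and Cebpd (0.88, adjusted p = 0.139) between forestomach and liver (limma throughout).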
